A study of Mus musculus with 9 samples.

Results

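The clustered protocadherins were followed in the hearts of mouse embryos that lacked the chromatin protein CTCF in the cardiac lineage. Genes were taken by name, as those of the alpha (*Pcdha*), beta (*Pcdhb*) and gamma (*Pcdhga*, *Pcdhgb*, *Pcdhgc*) clusters, and 9 of the 14011 genes in the deposited table belonged to them. RNA was sequenced from whole hearts at E10.5, in 9 libraries of 6 pooled hearts each, with 3 libraries per genotype on a mixed strain background. The samples labelled as controls carried *Ctcf* fl/fl and no Cre, although the study's methods name *Ctcf* fl/+ hearts as the controls of this experiment and the columns of the table read as controls are named Het. Heterozygotes were *Ctcf* fl/+; *Nkx2.5-Cre*/+ and homozygotes were *Ctcf* fl/fl; *Nkx2.5-Cre*/+. The *Nkx2.5-Cre* driver acts in cardiac progenitors and their derivatives, so cells of other origin in the same hearts keep CTCF, and its absence from controls means that Cre and deletion of *Ctcf* cannot be told apart against them. The labels do not say whether pools shared litters, so the p-values measure the spread between these pools.

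Clustered protocadherins are single-pass membrane proteins of the cadherin superfamily. They bind the same isoform on a neighbouring cell, and they are best known for giving neurons a surface identity by which branches of one cell avoid each other. In the alpha and gamma clusters each variable first exon has its own promoter and is spliced to constant exons shared by the whole cluster, while the beta genes are mostly single exons without a constant part. CTCF and cohesin bind at most of the variable promoters and at distant enhancers, and the looping between these sites takes part in promoter choice in neurons.

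The annotation used, GENCODE M1 on NCBIM37, decides what a row of the table stands for. It holds 25 genes of the clusters on chromosome 18, 2 in alpha, 22 in beta and 1 in gamma, whereas RefSeq for GRCm38.p6 names 58, with 14 in alpha, 22 in beta and 22 in gamma. *Pcdha11* (ENSMUSG00000007440, chr18:37089939-37347311, plus strand) collects 10 transcripts with different first exons, and *Pcdhgc5* (ENSMUSG00000023036, chr18:37833989-38001527, plus strand) collects 10 transcripts across the gamma cluster. Values of these genes are therefore sums over the annotated transcripts of many first exons, fewer than RefSeq names, and a change of promoter among them cannot be seen. They are called the alpha and gamma totals here in this sense only. The name *Pcdhgc5* here does not mean the C5 isoform. The beta genes have a row each. Of the 16 annotated genes not analysed here, 1 is *Pcdha3* and 15 are beta genes, *Pcdhb1* to *Pcdhb4*, *Pcdhb6* to *Pcdhb15* and *Pcdhb21*.

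The beta genes in the table sat at the 3′ end of their cluster. From *Pcdhb16* to *Pcdhb22*, a stretch of 43.7 kb, 6 of 7 genes were in the table, against 1 of 15 (*Pcdhb5*) in the 211 kb from *Pcdhb1* to *Pcdhb15*. No gene in the table reached a value of 1 in fewer than 3 of the 9 libraries. A value is a count of reads scaled by the authors to a common library size, and 1 read was worth 0.0901 to 0.231 of it. *Pcdhb20* (chr18:37663926-37667476) is annotated as a pseudogene in GENCODE M1 and as protein-coding in RefSeq.

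**Figure D1:**
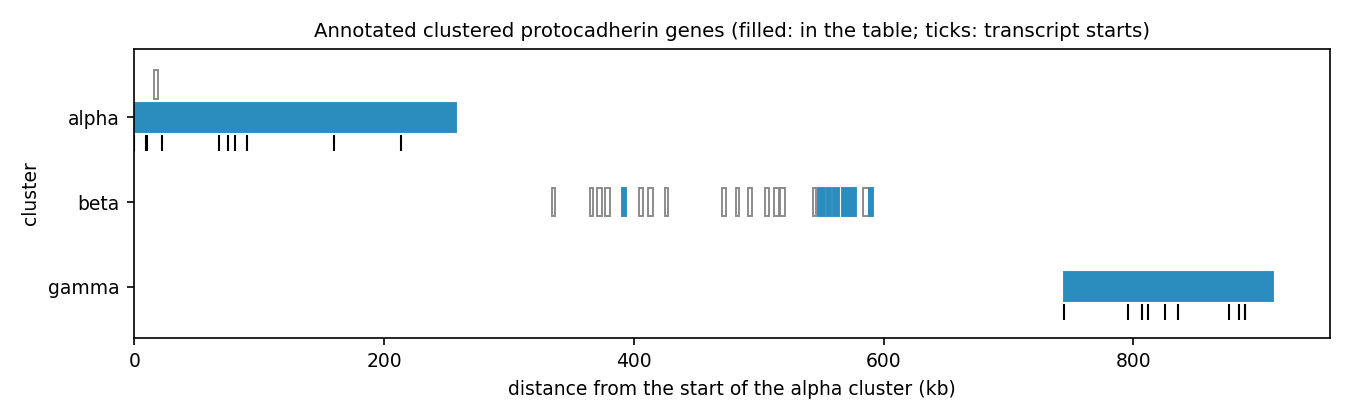
Annotated clustered protocadherin genes along chromosome 18, with the distance from the start of the alpha cluster in kb on the horizontal axis and a row for each cluster. Filled boxes are the 9 genes in the table, open boxes the 16 others, and ticks are transcript starts within *Pcdha11* and *Pcdhgc5*. The filled beta genes gather at the 3′ end of the beta row, with *Pcdhb5* alone further upstream.

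*Ctcf*, the deleted gene, had a value of 121, 122 and 122 in the control libraries. It was 101, 94.2 and 97.0 in heterozygotes and 79.6, 80.0 and 84.7 in homozygotes, with no overlap between the genotypes. Values are given here for replicates 1, 2 and 3 in order, numbered as the columns of the table end. The log2 fold change in homozygotes against controls was -0.57 (SE 0.06, limma adjusted p = 2.91e-05).

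Transcripts of the gamma cluster were by far the most abundant of the family. Per kb of the longest annotated transcript, *Pcdhgc5* had a mean value in controls of 36.1 ± 3.10 (SD, n = 3), *Pcdha11* of 1.13 ± 0.113 and *Pcdhb22* of 0.775 ± 0.123. *Pcdhb17* followed at 0.534 ± 0.0651 and *Pcdhb20* at 0.441 ± 0.116. *Pcdhb18*, *Pcdhb5*, *Pcdhb19* and *Pcdhb16* lay between 0.215 and 0.261. The control libraries of the first 3 genes did not overlap with those of the next gene in this order, while from *Pcdhb17* downward each gene overlapped with the next.

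The gamma genes supplied 92.6% of the summed value of the 9 genes in controls, 93.0% in heterozygotes and 93.8% in homozygotes. The beta genes supplied 4.72%, 4.53% and 3.44%, and the alpha genes 2.71%, 2.44% and 2.79%. Among all genes of the table the mean value of *Pcdhgc5* stood at percentile 94.0 and that of *Pcdha11* at percentile 21.6, while the 7 beta genes lay between percentiles 0.307 and 11.6. Depth limits the beta genes. Each had from 0 to 26 reads in a library, and they had from 47 to 151 reads over the 9 libraries, compared with 13382 reads for *Pcdhgc5*.

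**Figure D2:**
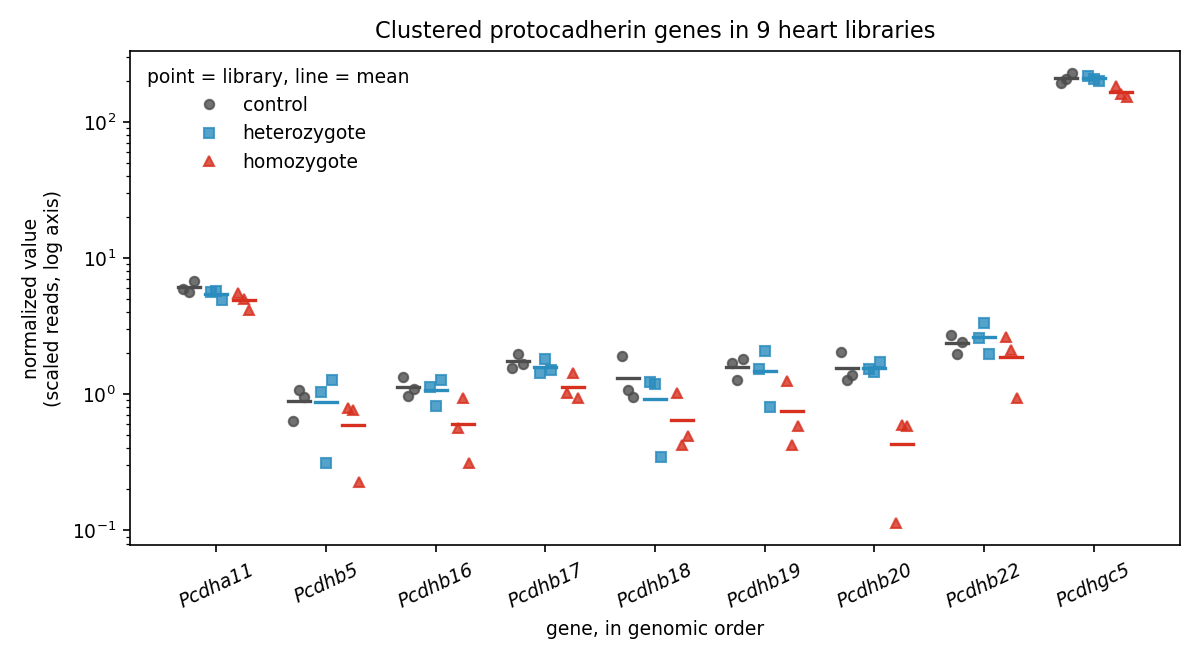
Normalized values (scaled reads, log axis) of the 9 genes in genomic order, with a point for each library, a line at each mean and a colour for each genotype. *Pcdhgc5* lies more than an order of magnitude above the rest, and the homozygote points of *Pcdhgc5* and *Pcdhb20* lie below all points of the other genotypes.

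Homozygotes were compared with controls to ask how the family behaves when CTCF is lost from the cardiac lineage. *Pcdhgc5*, the gamma total, fell to 79.3% of its control mean, and *Pcdhb20*, a beta gene, stood at 27.5%. These were the 2 of 9 genes called lower (limma, Benjamini-Hochberg adjusted p under 0.05 over all 14011 genes), and 0 were called higher. Among all genes 8.03% were called lower by the same rule. Log2 fold changes of the 9 genes were all below 0, from -1.18 to -0.29 with a median of -0.46, beside a median of -0.0011 over all genes.

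The filter on low values bears on these counts. *Pcdhb5*, *Pcdhb16* and *Pcdhb20* reached a value of 1 in no homozygote library, so they entered the table through libraries of the other genotypes and had to lie higher there. *Pcdhb17* and *Pcdhb22* reached it in 2 homozygote libraries and *Pcdhb18* and *Pcdhb19* in 1, fewer than the 3 libraries that every gene of the table had. All beta genes in the table thus needed libraries of the other genotypes to enter it. The 15 beta genes not analysed have no value to set beside them. The counts thus describe the genes that passed and not the beta cluster as a whole.

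*Pcdhgc5* had a value of 192, 206 and 227 in controls, 217, 208 and 199.9 in heterozygotes and 183, 161 and 152 in homozygotes. All homozygote libraries lay below all libraries of both other genotypes, and heterozygotes lay within the range of controls. The mean was 208 ± 17.9 (SD, n = 3) for controls, 208 ± 8.32 for heterozygotes and 165 ± 16.0 for homozygotes. The log2 fold change against controls was -0.33 (SE 0.08, limma adjusted p = 0.0113). The call was lost without control replicate 3 (adjusted p = 0.0588) and without homozygote replicate 3 (adjusted p = 0.0507), as well as with limma without its mean-variance trend (adjusted p = 0.0618).

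Gene length moved with this value. The annotated exons of *Pcdhgc5* add up to 28980 bases, percentile 99.96 of the table, because the first exons of many transcripts are summed, and its longest transcript has 5777 bases, percentile 86.8. Long genes were lower in homozygotes, with a median log2 fold change of -0.30 over the 140 genes of the top 1% by summed exons. With the trend on summed exons removed, *Pcdhgc5* stood at 0.04 (limma adjusted p = 0.829) and *Pcdha11* at 0.05. When the trend was taken on the longest transcript, a choice made once the data were known, *Pcdhgc5* stood at -0.21 (limma adjusted p = 0.0763), so the value without a trend depends on which length is used. Whether length contributes to the difference was not tested.

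*Pcdhb20* had a value of 2.04, 1.27 and 1.39 in controls and 1.52, 1.45 and 1.73 in heterozygotes. In homozygotes it was 0.114, 0.592 and 0.585, and every homozygote library lay below every library of the other genotypes. These values rest on 17, 12 and 9 reads in controls, 15, 11 and 7 in heterozygotes and 0, 3 and 6 in homozygotes. A count of 0 in homozygote replicate 1 allows up to 3 reads, or a value of 0.795, which is still below all controls and covers counting error only. The log2 fold change against controls was -1.18 (SE 0.32, limma adjusted p = 0.0237) on the log2(value + 0.5) scale, which understates changes of low genes. Since *Pcdhb20* reached a value of 1 in all libraries of the other genotypes and in no homozygote library, it was in the table only through the groups where it is high, so its call describes the values and does not support a change. Fitted to the recovered reads it was -1.84 with edgeR's quasi-likelihood test (adjusted p = 0.0330) and -1.91 with DESeq2 (adjusted p = 0.0727).

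The call of *Pcdhb20* also depended on single libraries. It was lost without control replicate 1 (limma adjusted p = 0.0894), control replicate 3 (0.0644) or homozygote replicate 1 (0.0657), with log2 fold changes from -1.32 to -0.91 over all libraries left out in turn. Removing either length trend kept the call.

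*Pcdha11*, the alpha total, had a value of 5.88, 5.64 and 6.80 in controls, 5.64, 5.74 and 4.96 in heterozygotes and 5.56, 4.99 and 4.19 in homozygotes. Homozygotes lay below all controls by a narrow margin and overlapped with heterozygotes. Its log2 fold change of -0.29 against controls (SE 0.17, limma adjusted p = 0.281) did not pass the threshold. The exons of *Pcdha11* overlap over 11.3% of their bases with *Gm10545* on the other strand, and those of *Pcdhgc5* over 5.68% with *Gm16882*, and the sources used here do not state that counting used the strand.

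*Pcdhb22*, the highest beta gene, had a value of 2.74, 1.98 and 2.41 in controls, 2.60, 3.34 and 1.96 in heterozygotes and 2.61, 2.12 and 0.946 in homozygotes. The groups overlapped, with homozygote replicate 3 alone below all other libraries. Its log2 fold change of -0.33 against controls (SE 0.30, limma adjusted p = 0.511) did not pass and was -0.0035 without that library.

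Of the other beta genes, *Pcdhb16*, *Pcdhb17* and *Pcdhb19* lay lower in every homozygote library than in every control library, while *Pcdhb5* and *Pcdhb18* overlapped. With *Pcdhgc5*, *Pcdhb20* and *Pcdha11* this made 6 of 9 genes without overlap, beside 16.5% of all genes that lay lower without overlap. Of the 6, *Pcdhb16*, *Pcdhb17*, *Pcdhb19* and *Pcdhb20* needed libraries of the other genotypes to enter the table. The count therefore describes the values and does not support a change. The homozygote means of *Pcdhb5* and *Pcdhb16* to *Pcdhb19* were 47.2% to 67.0% of the control means. Their log2 fold changes lay between -0.79 in *Pcdhb19* and -0.38 in *Pcdhb5*. None of the 5 passed the test (limma adjusted p from 0.141 to 0.560). *Pcdhb19*, the largest fall among them, rested on 12 to 14 reads in control libraries and 2 to 6 in homozygotes. Between 2.03% and 5.49% of the 50-base windows of the 7 beta genes occur in other annotated transcripts, so a small part of these reads could have been split among paralogs.

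**Figure D3:**
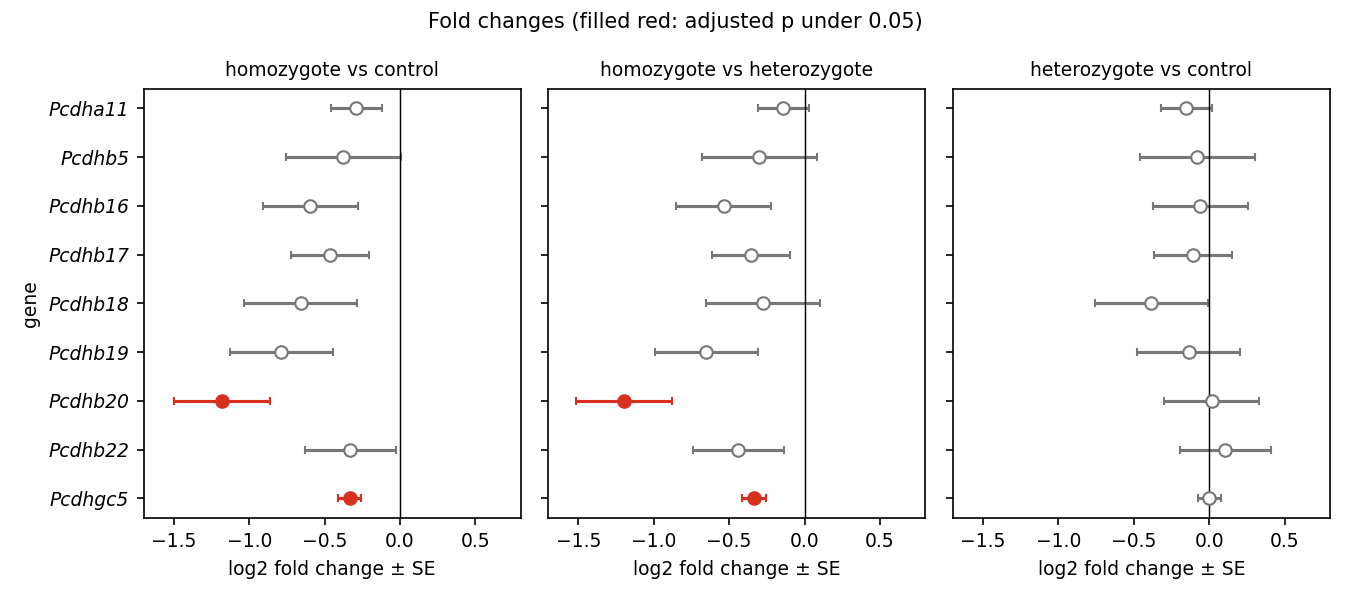
Log2 fold changes (horizontal axis, on the log2(value + 0.5) scale) of the 9 genes with their standard errors from limma, in a panel for each comparison, filled red where the adjusted p was under 0.05. *Pcdhb20* and *Pcdhgc5* are filled in both panels with homozygotes, and no gene is filled in heterozygotes against controls.

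Heterozygotes carry the driver, so homozygotes against heterozygotes is the comparison in which both groups have Cre. It shares the homozygote libraries with the comparison above. *Pcdhgc5* was at 79.4% of its heterozygote mean (log2 fold change -0.34, SE 0.08, limma adjusted p = 0.0127) and *Pcdhb20* at 27.5% (log2 fold change -1.20, SE 0.32, limma adjusted p = 0.0241). As against controls, the filter leaves the call of *Pcdhb20* a description. These 2 of 9 were called lower, beside 6.70% of all genes, and they were the 2 of 9 without overlap, beside 15.5% of all genes that lay lower without overlap. *Pcdhb22* and *Pcdha11* had log2 fold changes of -0.44 (SE 0.30, limma adjusted p = 0.377) and -0.14 (SE 0.17, limma adjusted p = 0.641). The other 5 beta genes lay between -0.65 and -0.28.

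The call of *Pcdhgc5* against heterozygotes was lost without homozygote replicate 3 (limma adjusted p = 0.0561), with limma without its mean-variance trend (0.0673) and with the trend on summed exons removed (0.384), and it was kept with the trend on the longest transcript removed (0.0443). That of *Pcdhb20* was lost without homozygote replicate 1 (limma adjusted p = 0.0638), without any single heterozygote library (0.0588 to 0.0716) and with DESeq2 (0.0918).

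Heterozygotes against controls asks whether the driver with loss of a single *Ctcf* allele moves the family. None of the 9 genes was called by limma, and 0 had an unadjusted p under 0.05, beside 0.143% of all genes called in either direction. With edgeR and DESeq2 the number called was also 0. All 9 genes overlapped between the groups. Log2 fold changes ran from -0.38 in *Pcdhb18* to 0.11 in *Pcdhb22*, with *Pcdhgc5* at 0.0008 (SE 0.08), *Pcdhb20* at 0.02 (SE 0.32) and *Pcdha11* at -0.15 (SE 0.17), and limma adjusted p from 0.894 to 0.999. A p that misses the threshold does not show equal levels, and for the beta genes the standard errors of 0.26 to 0.38 leave room for sizeable changes.

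Summed over its genes, the beta cluster had a value of 11.9, 9.61 and 10.3 in controls, 10.4, 11.0 and 8.88 in heterozygotes and 7.38, 6.69 and 4.10 in homozygotes. Homozygotes lay below all other libraries, with a mean of 6.05 ± 1.73 (SD, n = 3) against 10.6 ± 1.19 in controls and 10.1 ± 1.11 in heterozygotes. The homozygote mean was 57.0% of that in controls. The sum includes *Pcdhb5*, *Pcdhb16* and *Pcdhb20*, which reached a value of 1 in no homozygote library. The 4 other beta genes together stood at 63.0%, but they reached a value of 1 in only 1 or 2 homozygote libraries. They too entered the table with libraries of the other genotypes, so the filter bears on both percentages. No test was made of these sums, since the genes were chosen. A bulk library cannot tell fewer expressing cells from less RNA in each cell.

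**Figure D4:**
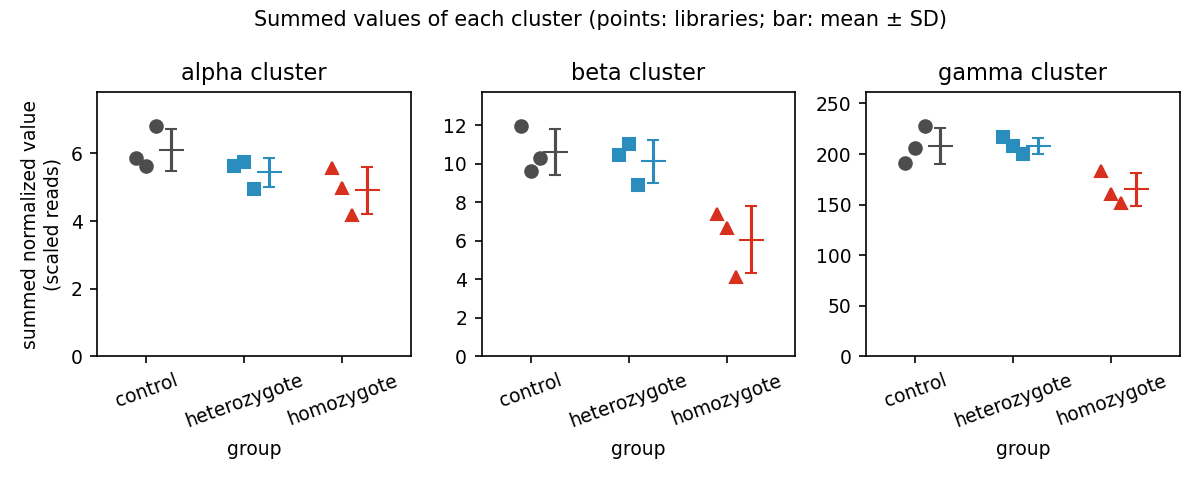
Summed normalized values (scaled reads, axis from 0) of the genes of each cluster, with a point for each library and the mean ± SD (n = 3) beside it, by genotype. The homozygote points lie below the control points in all 3 clusters and below the heterozygote points in beta and gamma.

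Markers of other cell types differed between the genotypes in the same libraries. Among all 14011 genes, 1125 were called lower and 1008 higher in homozygotes against controls. Of the erythroid markers, 6 of 6 were called higher in homozygotes against controls, and their summed value was 28285 to 40226 in controls, 22573 to 37820 in heterozygotes and 49707 to 65492 in homozygotes. Epicardial markers were called higher for 4 of 6, with sums of 411 to 473, 439 to 464 and 572 to 639. Of the cardiomyocyte markers, 3 of 8 were called lower, with sums of 10825 to 13416, 12372 to 15305 and 8645 to 11770, so the labelled tissue was present throughout. Endothelial and endocardial markers (2 of 7 lower, 1 higher) had sums of 969 to 1090, 931 to 969 and 810.0 to 975. Cushion mesenchyme markers (2 of 7 lower) had sums of 994 to 1049, 1019 to 1067 and 878 to 1161. Macrophage markers had sums between 10.8 and 22.7, and liver and endoderm markers had sums of 56.6 to 774 in controls and 4.84 to 70.2 elsewhere. In homozygotes against controls these 2 lists had 0 of 4 called each by limma, edgeR and DESeq2, and 0 and 1 had an unadjusted p under 0.05 in limma. Against heterozygotes 1 of 4 macrophage markers was called higher by limma. The part of these differences in the values of the protocadherins was not tested.

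Several of the marker counts against controls depended on the setting. Of the epicardial markers, 4 or 5 of 6 were called higher in every setting at an adjusted p under 0.05. The number of erythroid markers called higher was 1 with limma without its trend, 2 without control replicate 3, 3 with quantile normalization and 4 to 6 otherwise. Without control replicate 3 the limma adjusted p was 0.127 for *Alas2*, 0.0668 for *Hbb-y*, 0.0550 for *Hbb-bh1* and 0.0514 for *Hba-x*. The number of cardiomyocyte markers called lower was 5 without homozygote replicate 2 and 2 to 4 otherwise, and against heterozygotes it was 5, with 2 without the trend of limma, 3 without heterozygote replicate 2 or homozygote replicate 3, and 4 to 6 otherwise. For the endothelial and endocardial list the number lower was 5 without homozygote replicate 1, and it was 1 without control replicate 3, without homozygote replicate 2 or 3, without the trend of limma and with the trend on the longest transcript removed. The marker of this list called higher was not called without control replicate 1 or 3, without homozygote replicate 1 or 2, without the trend of limma and with DESeq2. For the cushion mesenchyme list 0 were called without the trend of limma, and 1 was called lower and 1 higher with the trend on the longest transcript removed.

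Neuronal and neural crest markers were examined because neurons are the known site of high expression. Of 17 listed, 11 were in the table, and *Phox2a*, *Sox10*, *Foxd3* and *Prph* were among those that were not. Against controls *Map2*, a neuronal microtubule protein listed under its older symbol *Mtap2* (log2 fold change -0.89), *Ncam1*, a neural adhesion molecule (-0.71), and *Erbb3*, a neuregulin receptor (-0.53), were called lower and *Tubb3*, a neuronal tubulin (0.63), was called higher by limma. Among all genes 8.03% were called lower. The call of *Erbb3* was lost without control replicate 2 (limma adjusted p = 0.0690) or control replicate 3 (0.0599), with the trend on the longest transcript removed (0.0882) and without the trend of limma (0.0585), and that of *Map2* with the trend on summed exons removed (0.0516). The summed value was 103 to 114 in controls, 85.5 to 106 in heterozygotes and 87.7 to 90.5 in homozygotes, with homozygotes below controls and inside the range of heterozygotes. Its part in the result was not tested.

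Regulators of the clusters were described from a fixed list of CTCF, cohesin, DNA methylation and chromatin genes, of which 24 of 25 were in the table. In homozygotes against controls 7 were called lower, beside 8.03% of all genes, and 1 higher, with a median log2 fold change of -0.05. Besides *Ctcf*, the lower genes included *Nipbl*, which loads cohesin on DNA (-0.38), *Dnmt3a*, a DNA methyltransferase (-0.37), and *Tet3*, which oxidizes methylcytosine (-0.34). *Stag1*, a cohesin subunit, was called higher, from a mean value of 107 ± 4.75 (SD, n = 3) in controls and 109 ± 0.857 in heterozygotes to 154 ± 5.23 in homozygotes (log2 fold change 0.52, SE 0.06, limma adjusted p = 5.89e-05). Against heterozygotes 3 were called lower, beside 6.70% of all genes, and 2 higher. In heterozygotes against controls *Ctcf* alone was called (limma adjusted p = 0.0467). The number higher against heterozygotes was 1 when any library but homozygote replicate 1 was left out. The call of *Ctcf* in heterozygotes against controls was lost without each of the 9 libraries in turn (limma adjusted p from 0.0502 to 0.269), and in 6 of the other settings, among them the replicate block (0.132). With the trend on the longest transcript removed, the calls of *Nipbl* (limma adjusted p = 0.131), *Dnmt3a* (0.125) and *Tet3* (0.470) were lost, and those of *Ctcf* and *Stag1* against controls were kept. The number of regulators lower against controls was then 1 and the number higher 2, and without the trend of limma 4 were lower, with *Nipbl* not called (adjusted p = 0.0532). With the trend on summed exons removed 4 were lower, with *Dnmt3a* (0.256) and *Tet3* (0.166) not called.

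Partners of the proteins, the genes of the WAVE complex and of kinase signalling that act below clustered protocadherins at the membrane, were called lower against controls for 2 of 19 in the table, beside 8.03% of all genes. The number called higher was 1, and the median log2 fold change was -0.02. The lower genes were the WAVE complex subunits *Abi2* (-0.30, SE 0.07) and *Nckap1* (-0.27, SE 0.05), and the higher gene was *Brk1*, another subunit, listed under its older symbol *6720456B07Rik* (0.25, SE 0.06, limma adjusted p = 0.0176). The call of *Abi2* was lost without control replicate 2 (limma adjusted p = 0.0579), without homozygote replicate 3 (0.0561), with either length trend removed and without the trend of limma (0.0520). That of *Brk1* was lost without control replicate 1 (limma adjusted p = 0.0745), control replicate 3 (0.0620), homozygote replicate 1 (0.0555) or homozygote replicate 3 (0.0530), with either length trend removed (0.295 and 0.242) and without the trend of limma (0.0589).

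Non-clustered protocadherins, related adhesion genes that lie outside the clusters, gave calls in both directions against controls. Of 7 in the table, 3 were called lower against controls, beside 8.03% of all genes, and 1 higher, and the median log2 fold change was -0.49. Against heterozygotes 2 were called lower, beside 6.70% of all genes, and 0 higher. *Pcdh7* had a value of 63.5, 60.5 and 72.9 in controls, 56.6, 70.6 and 73.0 in heterozygotes and 50.8, 47.3 and 34.7 in homozygotes. All homozygote libraries lay below the others (log2 fold change against controls -0.58, SE 0.13, limma adjusted p = 0.0108). *Pcdh18* changed by -0.49 (SE 0.13, limma adjusted p = 0.0200) and *Pcdh1* by -0.49 (SE 0.14, limma adjusted p = 0.0307). *Pcdh1* lies on the same chromosome, chr18:38345569-38371707, past the gamma cluster, and its call was lost without each of the 6 control and homozygote libraries in turn (limma adjusted p from 0.0624 to 0.0922).

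*Pcdh19*, a delta-protocadherin of the X chromosome, went the other way. Its value was 0.989, 1.07 and 0.512 in controls, 1.13, 1.70 and 1.04 in heterozygotes and 2.38, 2.96 and 1.85 in homozygotes (log2 fold change against controls 1.10, SE 0.29, limma adjusted p = 0.0230). The value of 0.512 in control replicate 3 is that of 3 reads, so depth limits this gene too. Homozygotes lay above all other libraries, but against heterozygotes, where both groups carry Cre, the gene was not called (log2 fold change 0.70, SE 0.29, limma adjusted p = 0.140). The call against controls was lost without control replicate 3 (limma adjusted p = 0.101), homozygote replicate 1 (0.0515) or homozygote replicate 2 (0.0790), and with DESeq2 (adjusted p = 0.0761). Those of *Pcdh7* and *Pcdh18* were lost without control replicate 3 (limma adjusted p = 0.0560 and 0.101), and that of *Pcdh18* also without homozygote replicate 2 (0.0644). With the trend on the longest transcript removed, *Pcdh18* (limma adjusted p = 0.0670) and *Pcdh1* (0.112) were no longer called, and *Pcdh7* and *Pcdh19* were. Without the trend of limma *Pcdh7*, *Pcdh18* and *Pcdh1* were not called (adjusted p from 0.0547 to 0.0623).

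Genes that flank the clusters on chromosome 18 were taken from a fixed list, of which 22 of 24 were in the table. The list does not hold every gene of the stretch and leaves out *Pcdh1*, which was called lower. None of the 22 was called by limma, edgeR or DESeq2 in homozygotes against controls, where 4 had an unadjusted p under 0.05 in limma, and 1 was called without homozygote replicate 1 or 2 and with voom. The log2 fold changes ran from -0.63 in *Dnd1* to 0.23 in *Sra1* with a median of 0.05. *Taf7*, a general transcription factor gene between the beta and gamma clusters (chr18:37800556-37803858), stood at 0.01 (limma adjusted p = 0.948). Against heterozygotes 1 of 22 was called lower, beside 6.70% of all genes. This was *0610009O20Rik* (log2 fold change -0.24, SE 0.07, limma adjusted p = 0.0409), a call lost without control replicate 1, heterozygote replicate 2 or 3, or any homozygote library (limma adjusted p from 0.0559 to 0.142). It was also lost with edgeR (adjusted p = 0.0517), DESeq2 (0.151), voom (0.0613), the replicate block (0.0620), only the groups compared (0.0601) and limma without its trend (0.0901). *0610010O12Rik*, which lies before the alpha cluster and is not on the list, was called lower in homozygotes against controls (log2 fold change -0.57, limma adjusted p = 0.0242). It was looked up after its value was seen. Of the 33 genes of the table within 1 Mb of the clusters, it and *Pcdh1* were the 2 called lower, beside 8.03% of all genes. Of the 33, 0 were called higher, and the median log2 fold change was 0.01.

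**Figure D5:**
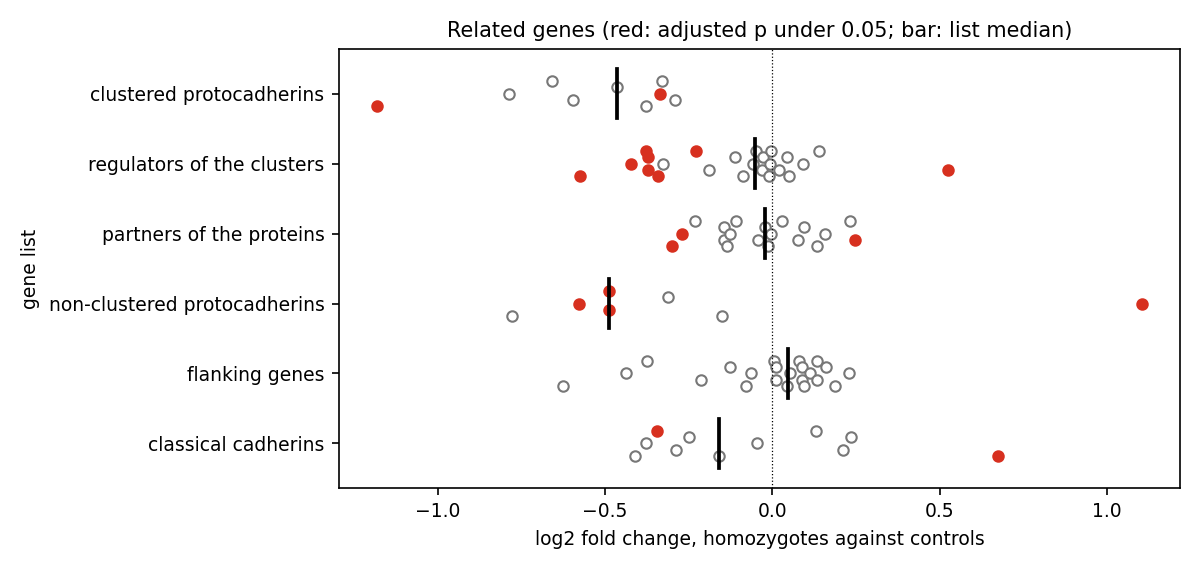
Log2 fold changes in homozygotes against controls (horizontal axis, log2(value + 0.5) scale) for the clustered protocadherins and 5 fixed gene lists, with a point for each gene, red where the limma adjusted p was under 0.05, and a bar at each median. The medians of the clustered and the non-clustered protocadherins lie near -0.5, while those of regulators, partners and flanking genes lie near 0.

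The genes most like *Pcdhgc5* over the 9 libraries, by Pearson's r of log2(value + 0.5), were *Dysf* (r = 0.985), *Gpr124* (0.981), *Uaca* (0.981), *Fbxo21* (0.979) and *Slc6a8* (0.973), on chromosomes 6, 8, 9, 5 and X. They are the top of 14010 genes ranked on 9 libraries that share the difference between genotypes. Within the family r with *Pcdhgc5* was highest for *Pcdha11* (0.828) and *Pcdhb19* (0.813) and lowest for *Pcdhb18* (0.495).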

How the data were processed

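PolyA RNA of 9 pools of 6 hearts was sequenced on a GAIIx instrument. The authors deposited normalized signal values per gene, made on NCBIM37 with Ensembl gene build 65, and the submitters' processing notes name CASAVA 1.8, cutadapt 1.6.1, Bowtie2 0.12.7, RSEM 1.20 and limma. The deposited signal of a gene equals its whole reads plus 0.5, scaled to an effective library size. Whole reads were recovered for 100% of 126099 values (tolerance 0.01), and the effective size was the total reads times 0.955 to 1.03. Total reads were 4294537 to 11629365 per library. Replicate pairs gave a chi-square of 3.22 to 7.15 per degree of freedom, beyond sampling noise. Columns named DH were read as the double heterozygotes of the labels, KO as homozygotes, and Het as the controls, which the methods describe as heterozygous for the floxed allele, although the deposited titles use HET for heterozygotes with the driver. The means of these columns equaled the group averages of the supplementary lists, within a small relative tolerance, in all 1998 and 787 genes held here.

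Values were analysed as log2(value + 0.5) with limma 3.58.1 in R 4.3.3, fitting 9 libraries and 3 groups together with a trended variance, and p-values were adjusted by Benjamini-Hochberg across 14011 genes. For a single gene 3 libraries against 3 allow no two-sided exact permutation p below 0.1. The count tests, edgeR 4.0.16 and DESeq2 1.42.0 on the recovered reads, were alternatives, and edgeR called 2212 genes in homozygotes against controls. The limma and edgeR steps were tested on simulated data. Gene models came from GENCODE M1, which placed 13987 genes. Genes named were all members, with tests for those called and for the highest of each cluster, and at most 6 called genes of each list, with older symbols matched through RefSeq synonyms. Members and lists were chosen with earlier results of these data known. Sequences, and some genes of the lists, are not reported here.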

Additional observations from a re-analysis of the deposited data

How the results depend on the processing

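The number of clustered protocadherins called in homozygotes against controls was 2, and it was 1 with a mean value of at least 5 (which leaves 2 of the 9 genes), with DESeq2, with limma without the trend, with the length trend removed and with the trend on the longest transcript removed, and 0 at an adjusted p under 0.01. Against heterozygotes it was also 2, and it was 1 with the mean value of at least 5, DESeq2, limma without the trend and the length trend removed, and 0 at an adjusted p under 0.01. Leaving out 1 library gave 0 to 2 against controls, with 0 without control replicate 3, and 1 to 2 against heterozygotes. Calls over all genes against controls numbered 2133, and 1049 without control replicate 3, 1267 without homozygote replicate 3, 1196 with limma without the trend, 1381 with the trend on the longest transcript removed and 858 at an adjusted p under 0.01. Against heterozygotes they numbered 1901, and 1023 without homozygote replicate 3, 1223 to 1268 without a heterozygote library, 1063 without the trend and 722 at an adjusted p under 0.01. The number of the family called stayed 0 in heterozygotes against controls in every setting. Removal of the length trend turned *Pcdhgc5* to 0.038 and *Pcdha11* to 0.047 against controls and *Pcdha11* to 0.052 against heterozygotes. The cause of the other changes was not tested.

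In heterozygotes against controls, where values lay near 0, *Pcdhgc5* turned to -0.0036 with quantile normalization, and *Pcdhb20* to -0.028 with edgeR and -0.025 with DESeq2. With 1 library left out *Pcdhgc5* ranged from -0.057 to 0.065, *Pcdhb20* from -0.085 to 0.17 and *Pcdhb22* from -0.050 to 0.27. Over all alternative settings the highest value of *Pcdhgc5* was 0.16. *Hbb-y* stood at 0 with quantile normalization. Over 62 results on single genes, 1136 of 1284 alternative values kept direction and side of the threshold, 134 lost the call and 14 turned. Scaled to total reads instead of the effective library size, each cluster's mean summed value moved by less than 1 SD in every genotype. Voom and the trend on the longest transcript were chosen after seeing the data.

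Same-numbered libraries did not deviate together (correlations from -0.108 to 0.0987), so the numbers do not pair them. With a replicate block 2, 2 and 0 genes of the family were called in the 3 comparisons, and *Pcdhgc5* and *Pcdhb20* had limma adjusted p of 0.0243 and 0.0415 against controls. Depth limits the beta genes, with at most 26 reads in a library.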

Other observations

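Classical cadherins, the adhesion proteins that hold cells of a tissue together through catenins, had 11 of 16 listed genes in the table. In homozygotes against controls *Cdh2*, the N-cadherin of cardiomyocyte junctions, was called lower (log2 fold change -0.34, SE 0.10, limma adjusted p = 0.0284) and *Cdh13*, a cadherin anchored by a lipid, was called higher (log2 fold change 0.68, SE 0.14, limma adjusted p = 0.00584). The median over the 11 genes was -0.16. The call of *Cdh2* was lost without control replicate 2 (limma adjusted p = 0.0610), control replicate 3 (0.116) or homozygote replicate 3 (0.101), with the trend on summed exons (0.107) or on the longest transcript (0.0891) removed and without the trend of limma (0.108), and 2 cadherins were called lower without homozygote replicate 1. Against heterozygotes 1 gene, *Cdh2*, was called (log2 fold change -0.41, SE 0.10, limma adjusted p = 0.0131), and that call was lost without heterozygote replicate 2 (limma adjusted p = 0.0555) and without the trend of limma (0.0731).

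The other genes of the table that lie within the span of the clusters besides *Taf7* were *3222401L13Rik*, just before the gamma cluster, and *Gm16882*, on the opposite strand inside it. Both were looked up after the values of the family were known. Their log2 fold changes in homozygotes against controls were -0.52 (limma adjusted p = 0.112) and -0.33 (limma adjusted p = 0.232).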
